A study of Mus musculus with 2 samples.

Results

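The cells described here are tumor-infiltrating natural killer (NK) cells in which transcripts of Vegfa, the gene of vascular endothelial growth factor A, were counted. They were taken from 2 single-cell libraries of cells sorted as CD3ε-NK1.1+ from subcutaneous tumors of RMA-S, a lymphoma line of mouse origin that shows little MHC class I on its surface, collected 2 weeks after injection. The KO library came from mice with a Hif1a KO in NK cells (NK-Hif1a-/-), and the WT library from wild-type mice bearing the same tumor. The sources used here do not give the promoter driving the deletion, the deleted part of Hif1a, the age of the mice, or how many mice or tumors went into a library. With 1 library per genotype there is no replicate check, no test was made, and every interval is a 95% interval that covers counting error only.

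Membership rested on raw counts of unique molecular identifiers (UMIs), each of which stands for 1 captured transcript. A barcode was kept when at least 500 genes were detected and mitochondrial UMIs made up at most 10%. A kept cell passed the NK gates when Cd3d and Cd3e, which encode CD3 chains of T cells, summed to fewer than 2 UMIs, Tmem176a and Tmem176b summed to 0, and at least 1 UMI came from the NK receptor genes Ncr1, Klrb1c or Klre1. Such a cell counted as Vegfa-expressing with 2 or more Vegfa UMIs. These criteria gave 686 Vegfa-expressing cells in the KO library and 221 in the WT library, together 907 of 6622 kept cells and of 6684 barcodes. They were compared with the Vegfa-negative cells, which passed the same gates with 0 Vegfa UMIs and numbered 1649 KO and 2598 WT cells. A count of 0 in a single cell does not show that the transcript was absent. The libraries shared 19 barcodes, and 2 KO and 0 WT Vegfa-expressing cells carried one of them.

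VEGF-A is a secreted growth factor that acts through receptor tyrosine kinases on endothelial cells and drives the sprouting and permeability of blood vessels. Its gene is a textbook target of hypoxia-inducible factor 1, whose oxygen-regulated subunit HIF-1α is encoded by Hif1a, and it also responds to AP-1, cAMP and NF-κB signalling. NK cells are cytotoxic innate lymphocytes, and in tumors they have been studied both as killers and as a source of factors that act on vessels.

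Vegfa lies on chromosome 17 at 46016993-46032369 on the minus strand of GRCm38, the assembly also called mm10, in GENCODE M21. The 250 bases upstream of 4 genes are shown, because Hilpda and Nr4a1 were among the genes with the highest ratios in Vegfa-expressing cells and Hspa1a was among the most strongly lower ones. They are RefSeq windows of GRCm38.p6, written 5′ to 3′ on each gene's strand, with matches to the searched motifs in capitals: Vegfa at chr17:46032378-46032627 (minus), Hilpda at chr6:29272238-29272487 (plus), Nr4a1 at chr15:101266596-101266845 (plus) and Hspa1a at chr17:34972157-34972406 (minus).
Vegfa: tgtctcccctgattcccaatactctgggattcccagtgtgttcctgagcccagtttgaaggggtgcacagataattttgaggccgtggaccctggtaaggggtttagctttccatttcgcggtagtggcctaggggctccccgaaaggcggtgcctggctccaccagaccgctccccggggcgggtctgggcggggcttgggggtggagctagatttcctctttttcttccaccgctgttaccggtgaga
Hilpda: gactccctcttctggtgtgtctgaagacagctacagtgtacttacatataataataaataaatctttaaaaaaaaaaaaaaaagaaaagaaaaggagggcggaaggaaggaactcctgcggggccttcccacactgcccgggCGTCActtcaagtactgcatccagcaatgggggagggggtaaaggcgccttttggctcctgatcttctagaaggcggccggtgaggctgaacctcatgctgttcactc
Nr4a1: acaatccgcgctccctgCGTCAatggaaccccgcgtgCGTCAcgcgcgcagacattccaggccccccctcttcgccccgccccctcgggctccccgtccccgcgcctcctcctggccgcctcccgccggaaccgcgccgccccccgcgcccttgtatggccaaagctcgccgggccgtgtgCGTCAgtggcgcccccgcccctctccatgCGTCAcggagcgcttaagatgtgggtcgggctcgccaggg
Hspa1a: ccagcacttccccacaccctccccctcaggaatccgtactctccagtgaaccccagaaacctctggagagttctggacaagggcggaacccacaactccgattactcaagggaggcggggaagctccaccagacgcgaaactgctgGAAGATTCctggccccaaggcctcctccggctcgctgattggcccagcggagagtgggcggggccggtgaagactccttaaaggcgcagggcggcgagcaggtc
The motifs, searched on both strands, were the hypoxia response core ACGTG, the cAMP response element TGACGTCA and its shorter core TGACG, the AP-1 site TGANTCA, the NF-κB site and the heat shock pair GAANNTTC. A full cAMP element also holds its core, and TGACGTG holds both the cAMP core and the hypoxia core.

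The printed Vegfa window matched none of these letters, which says only that they are not in this window. A second RefSeq start inside Vegfa had a hypoxia core and a cAMP core, 211 and 209 bases before it. Both overlap in the letters CACGTCA, so they are not separate sites. The printed Hilpda window had 1 cAMP core, and a second Hilpda start had a hypoxia core, 2 cAMP cores and an AP-1 site, 43, 246, 68 and 128 bases before it. Both Hilpda windows overlap, and the core 246 bases before the second start is the same site as the core in the printed window. Each window counts separately in the shares below. Nr4a1 had 4 cAMP cores, 233, 213, 69 and 40 bases before its start, read as CGTCA on the printed strand. That window lies inside the Nr4a1 gene as annotated in GENCODE M21, which spans 101254269 to 101274795. Hspa1a had 1 heat shock pair, 104 bases before its start. Across all 32851 RefSeq windows, 16.6% held a hypoxia core, 17.8% a cAMP core, 6.75% an AP-1 site and 6.69% a heat shock pair. Windows of the genes called higher in Vegfa-expressing cells, defined below, held a cAMP core in 41.6% of cases (32 of 77 windows of 54 matched genes), against 30.3% of windows of all genes measured. A hypoxia core was found in 22.1% of the former and 23.4% of the latter. An AP-1 site was found in 9.09% of windows of higher genes (7), 12.5% of the 24 windows of 19 matched lower genes (3) and 4.37% over all genes measured. A heat shock pair was found in 5.19%, 16.7% and 5.04%, which were 4 windows each for the higher and lower genes, and the windows of Fosl2 and Ier5l, both called higher, each had 1. The cAMP core was in 29.2% of windows of lower genes. These shares are descriptions of letters and not of binding.

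Hif1a, the targeted gene (chromosome 12, 73901375 to 73947530, plus strand), was counted in both libraries. Its level was 64.9 CPM (UMIs per 1000000 UMIs of the summed cells) in KO Vegfa-expressing cells and 56.6 CPM in KO Vegfa-negative cells. In the WT library it was 92.7 and 51.4 CPM. The log2 ratio of Vegfa-expressing over Vegfa-negative cells was 0.19 (-0.06 to 0.45) in KO and 0.84 (0.58 to 1.12) in WT cells. Between libraries, the log2 ratio KO over WT was -0.51 (-0.84 to -0.19) in Vegfa-expressing and 0.14 in Vegfa-negative cells. A tag near the 3′ end can lie outside the deleted part, so these values check nothing about the deletion.

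The label was checked against NK genes that the gates did not use. All 12 of these markers passed the floor of 20 CPM, and none differed by 1.5-fold in the same direction in both libraries. Gzma, which encodes a granule protease, stood at 12267 CPM in KO and 8756 CPM in WT Vegfa-expressing cells. Nkg7, a cytotoxic granule protein gene, stood at 3402 and 3144 CPM, and Eomes, which encodes a lineage-defining transcription factor, at 246 and 202 CPM. The summed level of the 12 markers was 26750 CPM in KO Vegfa-expressing against 30784 CPM in KO Vegfa-negative cells, and 22702 against 29786 CPM in the WT library. Their median log2 ratio was -0.17 in KO and -0.25 in WT cells, against -0.04 and -0.02 over all genes measured. NK markers were thus abundant in these cells, at slightly lower summed levels than in Vegfa-negative cells.

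Markers of other cell types were summed in the same way, and their part in the results was not tested. The 16 macrophage and monocyte markers summed to 721 CPM in KO and 619 CPM in WT Vegfa-expressing cells, against 559 and 342 CPM in Vegfa-negative cells. Most of this was Plac8, a gene that NK cells also express, at 659 and 544 CPM. C1qc, Adgre1, Fcgr1, Lyz1 and Mrc1 were at 0 UMIs in Vegfa-expressing cells of both libraries. T cell markers outside the gate summed to 326 and 286 CPM against 336 and 313 CPM, with Cd4 and Cd8a at 0. Neutrophil markers summed to 6.2 CPM in KO and 16.8 CPM in WT Vegfa-expressing cells, against 44.2 and 8.6 CPM, with Mmp8 and Ly6g at 0. Dendritic cell markers summed to 155 and 216 CPM against 230 and 247 CPM, with 4 of 12 at 0. Endothelial and fibroblast markers summed to 68.1 and 52.4 CPM against 60.9 and 56.5 CPM, with 8 of 10 at 0. Basophil and mast cell markers summed to 22.2 and 68.5 CPM against 18.6 and 32.6 CPM, with 6 of 9 at 0. Erythroid markers stood at 118 CPM in Vegfa-expressing and 712 CPM in Vegfa-negative cells of the WT library, and at 293 and 301 CPM in the KO library.

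Vegfa-expressing cells were more frequent in the KO library. They made up 24.6% of its NK-gated cells (686 of 2793, exact interval 23.0% to 26.2%) and 6.97% of those of the WT library (221 of 3170, 6.11% to 7.91%). The KO library was the shallower one, with a median of 3716 against 4362.5 UMIs per NK-gated cell. After every cell had been thinned to 2500 UMIs, leaving out 394 KO and 87 WT cells as too shallow, 18.2% of KO (16.7% to 19.8%) and 2.89% of WT cells (2.32% to 3.54%) still had 2 Vegfa UMIs. Depth and share moved together within the KO library, where the share was 18.5%, 25.7%, 27.4% and 30.0% across 4 classes of increasing depth. In the same classes the WT share was 6.23%, 5.87%, 5.0% and 9.83%. The KO share lay above the WT share in each class.

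The number of Vegfa UMIs per cell also differed. Vegfa-expressing cells held 3104 Vegfa UMIs in KO and 659 in WT cells, which was 87.1% and 65.2% of all Vegfa UMIs of NK-gated cells. The median was 3 UMIs per cell in KO and 2 in WT cells, and the highest cell had 25 and 14. At the inner edge of the cutoff, 226 KO and 115 WT cells had exactly 2 UMIs, and just outside it 458 KO and 351 WT cells had 1. In the KO library 50 cells had 10 or more, and in the WT library 2 cells did. The summed Vegfa level was 1012 CPM in KO and 443 CPM in WT Vegfa-expressing cells, which describes the cells the cutoff selected.

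**Figure D1:**
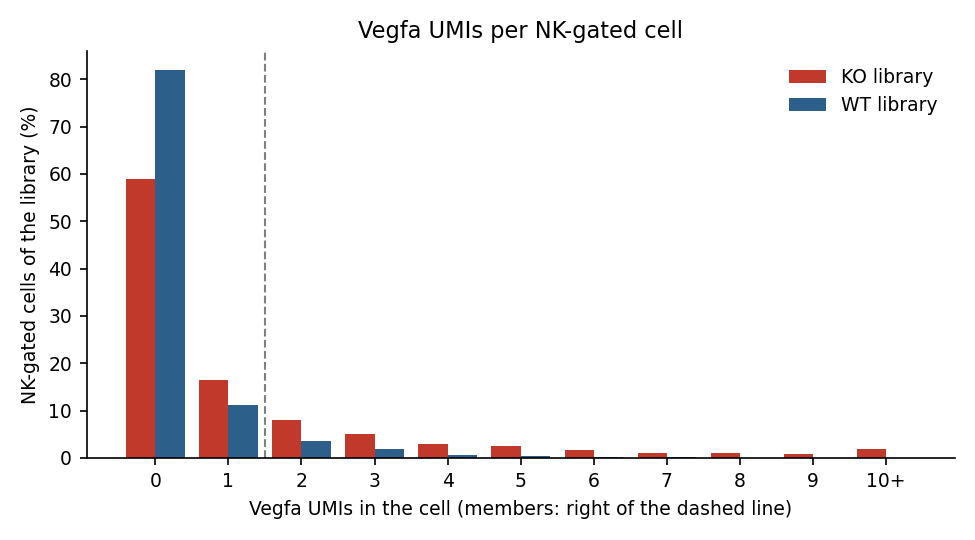
Share of NK-gated cells (y axis, percent of the library's NK-gated cells) by the number of Vegfa UMIs in the cell (x axis), with KO cells in red and WT cells in blue. Cells right of the dashed line are the Vegfa-expressing cells, 24.6% of the KO and 6.97% of the WT library, and the KO bars extend further to the right, with 50 KO and 2 WT cells at 10 or more UMIs.

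Free RNA in the droplets can give UMIs in cells that do not express a gene, so Vegfa was also counted in kept cells that failed a gate. Among cells with 2 or more CD3 UMIs, 6 of 94 in the KO (6.38%) and 7 of 193 in the WT library (3.63%) had 2 or more Vegfa UMIs. After thinning this was 3 of 88 (3.41%, 0.71% to 9.64%) in KO and 0 of 191 in WT cells (up to 1.91%), against 18.2% and 2.89% of NK-gated cells. Cells with a Tmem176 UMI had 2 or more Vegfa UMIs in 27.6% (43 of 156) and 14.1% (26 of 184) of cases, and after thinning in 19.2% (13.1% to 26.5%) and 6.08% (3.07% to 10.6%). Their thinned shares were thus above those of the NK-gated cells in point value in both libraries, with overlapping intervals. Before thinning, the shares of the NK-gated cells were 24.6% in KO and 6.97% in WT cells, also below those of cells with a Tmem176 UMI. Median depth was 5000 UMIs for KO and 5353 for WT cells with CD3 UMIs, and 4774.5 and 5471.5 in those with a Tmem176 UMI, deeper than the NK-gated cells. Vegfa UMIs were therefore not limited to cells inside the NK gates.

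Genes were then compared between Vegfa-expressing and Vegfa-negative cells on UMIs summed over each library's cells, as log2 of the ratio of CPM with 1 CPM added. A gene was called when it differed at least 1.5-fold in the same direction in both libraries. The 8 genes of the rule were left out, and 4997 genes had a mean of at least 20 CPM over the 4 pools. Of these, 72 were higher (1.44%) and 22 were lower (0.44%) in Vegfa-expressing cells in both libraries. In the KO library alone 136 were higher (2.72%) and 82 lower (1.64%), and in the WT library alone 139 higher (2.78%) and 144 lower (2.88%). Since the cells were selected on a transcript count from these same libraries, the ratios are descriptions. Vegfa-expressing cells were also deeper than Vegfa-negative cells, with medians of 3979 against 3583 UMIs in KO and 5046 against 4307.5 in WT cells. With Vegfa-negative cells matched on depth, all 72 higher genes kept a ratio above 0 in both libraries and 63 stayed called, and all 22 lower genes kept a ratio below 0 and 12 stayed called. Without the deepest 5% of cells, 66 and 11 stayed called.

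The 4 marker genes given for these cells beside Vegfa were all called higher. Fosl2, on chromosome 5, encodes the AP-1 subunit Fra-2, and its level was 749 CPM in KO Vegfa-expressing against 374 CPM in KO Vegfa-negative cells. In the WT library it was 312 against 131 CPM. The log2 ratios were 1.0 (0.92 to 1.08) and 1.25 (1.11 to 1.40). Crem encodes a transcription factor of the cAMP response, including the inducible repressor ICER. It stood at 1068 against 573 CPM in KO and 468 against 263 CPM in WT cells, log2 ratios of 0.90 (0.83 to 0.97) and 0.83 (0.71 to 0.95).

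Cxcr4, the receptor gene for the chemokine CXCL12, had 232 against 108 CPM in the KO library and 98.1 against 54.6 CPM in the WT library. Its log2 ratios were 1.11 (0.96 to 1.26) and 0.83 (0.58 to 1.10). Ier5l, an immediate early response gene on chromosome 2, had 149 against 59.2 CPM and 93.4 against 25 CPM, with log2 ratios of 1.31 (1.13 to 1.53) and 1.86 (1.61 to 2.19). For Fosl2, Crem and Cxcr4 the KO Vegfa-negative cells stood above the WT Vegfa-expressing cells, so a level alone does not mark these cells across libraries. Ier5l was the exception among the 4, at 59.2 CPM in KO Vegfa-negative and 93.4 CPM in WT Vegfa-expressing cells.

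Per cell, the marker genes overlapped widely between the groups. After thinning, 34.4% of KO Vegfa-expressing cells (219 of 636) carried UMIs of at least 3 of the 4 markers, against 15.3% of KO Vegfa-negative cells (210 of 1372). In the WT library the shares were 20.7% (44 of 213) and 4.40% (111 of 2525). None of the 4 was detected in 2.99% of KO and 16.4% of WT Vegfa-expressing cells, and in 23.8% and 43.7% of Vegfa-negative cells.

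Among the 12 highest genes of the comparison was Hilpda, a hypoxia-inducible gene whose protein coats lipid droplets. It stood at 220 against 94.6 CPM in KO and 146 against 57.0 CPM in WT cells, log2 ratios of 1.21 (1.06 to 1.37) and 1.35 (1.14 to 1.58). The 10 cells with the most Hilpda UMIs held 30.0% of the Vegfa-expressing cells' UMIs in KO and 47.2% in WT cells. Apart from Ier5l and Gzmc, the others had log2 ratios between 1.0 and 1.40 in both libraries. They included Csrnp1, an immediate early nuclear protein gene, at 449 against 201 CPM and 113 against 47.5 CPM. Maff, a small Maf transcription factor gene, had 185 against 83.7 CPM and 59.1 against 22.6 CPM. Ifrd1, Kdm2b, Zbtb10, Nfkbie and the chemokine gene Cxcl10 completed this side with Fosl2, Ier5l, Nr4a1 and Gzmc. Cxcl10 rested on few cells, 10 of which held 49.5% of its KO and 58.8% of its WT UMIs in Vegfa-expressing cells.

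**Figure D2:**
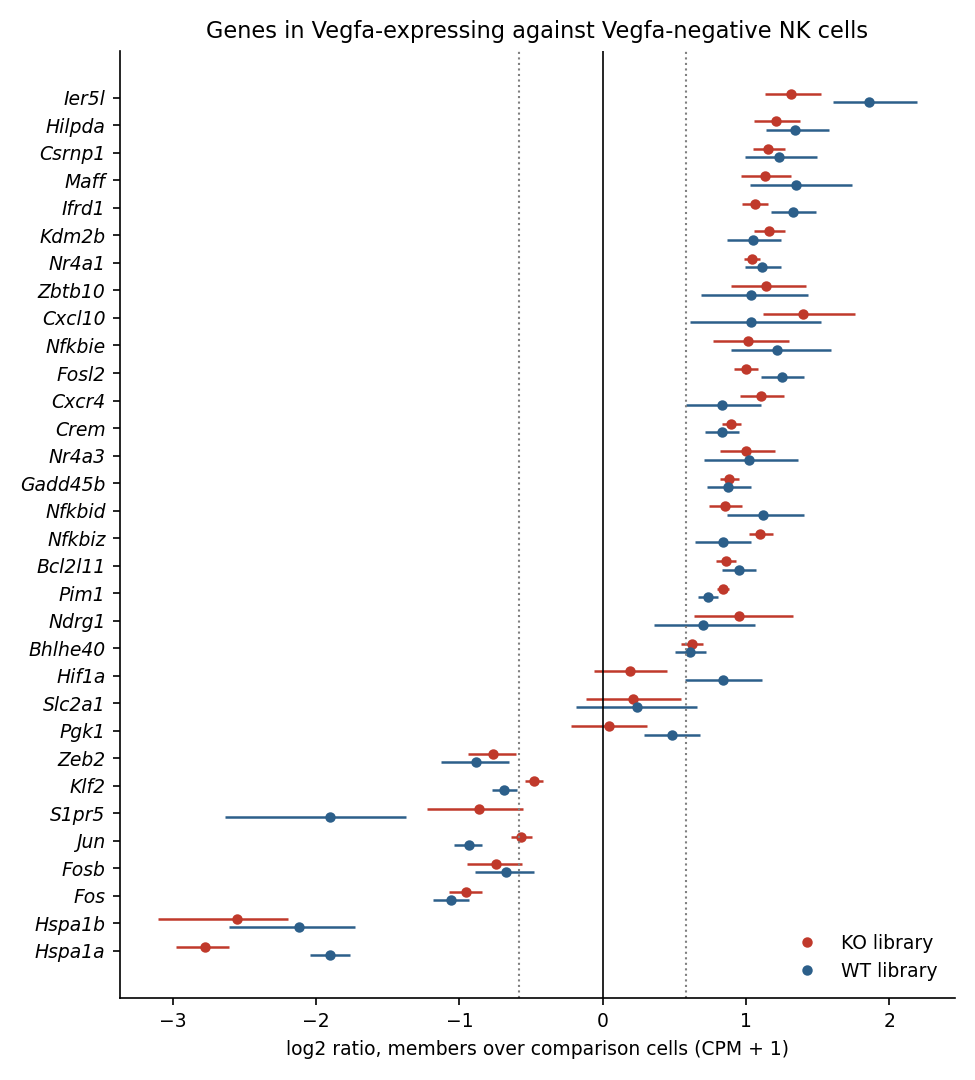
Log2 ratio of Vegfa-expressing cells (members) over Vegfa-negative cells (comparison cells) for the named genes on the y axis, on CPM with 1 CPM added, KO in red and WT in blue. Bars are 95% counting intervals and dotted lines mark 1.5-fold. Genes are in a chosen order that is not a ranking by ratio. Ier5l and Hilpda lie right of the upper 1.5-fold line in both libraries, and Pgk1 and Slc2a1 lie left of it. Hspa1a and Hspa1b lie left of the lower 1.5-fold line.

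The Nr4a orphan nuclear receptor genes, which are induced within minutes of lymphocyte activation, were higher as a family. All 3 passed the floor and all 3 were called, against 1.44% of all genes measured that were called higher. Nr4a1 (chromosome 15) had 1648 against 801 CPM in the KO library and 428 against 197 CPM in the WT library, log2 ratios of 1.04 (0.99 to 1.10) and 1.11 (0.99 to 1.24). The log2 ratios of Nr4a3 were 1.0 and 1.02, and those of Nr4a2 were 0.74 and 0.64. In the KO library Nr4a1 was detected after thinning in 89.3% of Vegfa-expressing and 62.1% of Vegfa-negative cells, and in the WT library in 55.4% and 27.9%.

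NF-κB genes formed the largest group of higher genes among the 28 lists. Of 23 measured subunits, inhibitors and targets, 9 were called higher and 0 lower, against 1.44% and 0.44% of all genes measured. The list's median log2 ratio was 0.64 in KO and 0.49 in WT cells. The 9 were the subunit genes Nfkb1 and Rel, the inhibitor genes Nfkbia, Nfkbid, Nfkbie and Nfkbiz, and the target genes Birc3, Icam1 and Cd83. Nfkbiz, which encodes the atypical nuclear inhibitor IκBζ, stood at 724 against 337 CPM in KO and 173 against 96.6 CPM in WT cells. Nfkbid had log2 ratios of 0.85 and 1.12. Cd83 had 0.64 and 2.01 (0.54 in the KO library with depth matched), and 10 cells held 67.3% of its UMIs in WT Vegfa-expressing cells.

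Immediate early and AP-1 genes did not move as one group. For the counts below, the shares over all genes measured were 1.44% called higher and 0.44% called lower. Of 27 immediate early and feedback genes 4 were called higher (Ier5l, Csrnp1, Gadd45b and Tob1) and 0 lower, with medians of 0.49 in KO and 0.06 in WT cells. Gadd45b, a stress-induced growth arrest gene, had 1056 against 572 CPM and 275 against 149 CPM, a log2 ratio of 0.88 in each library. Of 13 AP-1 genes, Fosl2 and Maff were called higher and Fos and Fosb lower. Fos, which encodes the founding subunit of the complex, had 246 against 477 CPM in KO and 367 against 764 CPM in WT cells, log2 ratios of -0.95 (-1.07 to -0.84) and -1.06 (-1.19 to -0.93). The log2 ratios of Fosb were -0.75 and -0.68, and its WT ratio without the deepest cells was -0.40, short of the threshold. Jun, at -0.57 and -0.94, did not reach 1.5-fold in the KO library.

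Genes of the hypoxia response were split. Across all genes measured, 1.44% were called higher and 0.44% lower. Of 15 measured HIF target genes outside glycolysis, Hilpda, Ndrg1 and Bhlhe40 were called higher and 0 were lower, with list medians of 0.11 in KO and 0.34 in WT cells. Ndrg1, a stress-induced gene, had 44.0 against 22.3 CPM and 54.4 against 33.1 CPM, log2 ratios of 0.95 (0.64 to 1.33) and 0.70 (0.36 to 1.06), and 0.41 in the WT library with depth matched. Bhlhe40, which encodes a transcriptional repressor also induced by activation, had log2 ratios of 0.62 and 0.61. Among 14 genes of glucose transport, glycolysis and lactate export 0 were called in either direction, and the medians were -0.02 and 0.24. Pgk1, the phosphoglycerate kinase gene, stood at 58.4 against 56.5 CPM in the KO library, a log2 ratio of 0.05 (-0.22 to 0.31), and at 165 against 118 CPM in the WT library, 0.48 (0.29 to 0.68). Slc2a1, the glucose transporter gene, had ratios of 0.21 (-0.11 to 0.54) and 0.24 (-0.19 to 0.66).

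Other signalling lists had few called members, to be read beside the 1.44% of all genes measured that were called higher. Of 22 cAMP and CREB genes only Crem and Fosl2 were called, with medians of 0.23 and 0.09. In the list of interleukin receptor signalling 1 of 18 was called, the kinase gene Pim1, at 2914 against 1629 CPM and 1347 against 808 CPM. The TGF-β list had 1 of 10, the corepressor gene Tgif1, with log2 ratios of 0.82 and 0.77. Its other members with large ratios did not reach the threshold in both libraries, Skil at 0.71 and 0.53 and Smad7 at 0.57 and 0.39. In the stress response list 1 of 12 was called, Cebpb, at 0.93 and 0.77, while Atf4 stood at 0.61 and 0.38. From the survival list, the pro-death gene Bcl2l11 (BIM) was called at 0.86 and 0.95 and the cell cycle inhibitor gene Cdkn1a (p21) at 0.86 and 0.75, 2 of 12. Of 6 measured calcium and NFAT pathway genes, Orai1, the calcium channel gene, was called at 0.69 and 0.59.

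Of 25 listed Vegf ligands, receptors and other angiogenic factors, 3 passed the floor and 0 were called. Tgfb1, which encodes the cytokine TGF-β1, had log2 ratios of 0.50 (0.40 to 0.61) and 0.35 (0.19 to 0.50). Pgf, Flt1, Kdr, Hgf, Mmp9 and Il10 were at 0 UMIs in Vegfa-expressing cells of both libraries. Among 11 measured cytokine and chemokine genes Cxcl10 was called higher and Ccl9 lower. Ccl5, the chemokine gene of activated and memory lymphocytes, had 21137 against 24051 CPM in KO and 16411 against 31041 CPM in WT cells, log2 ratios of -0.19 and -0.92.

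**Figure D3:**
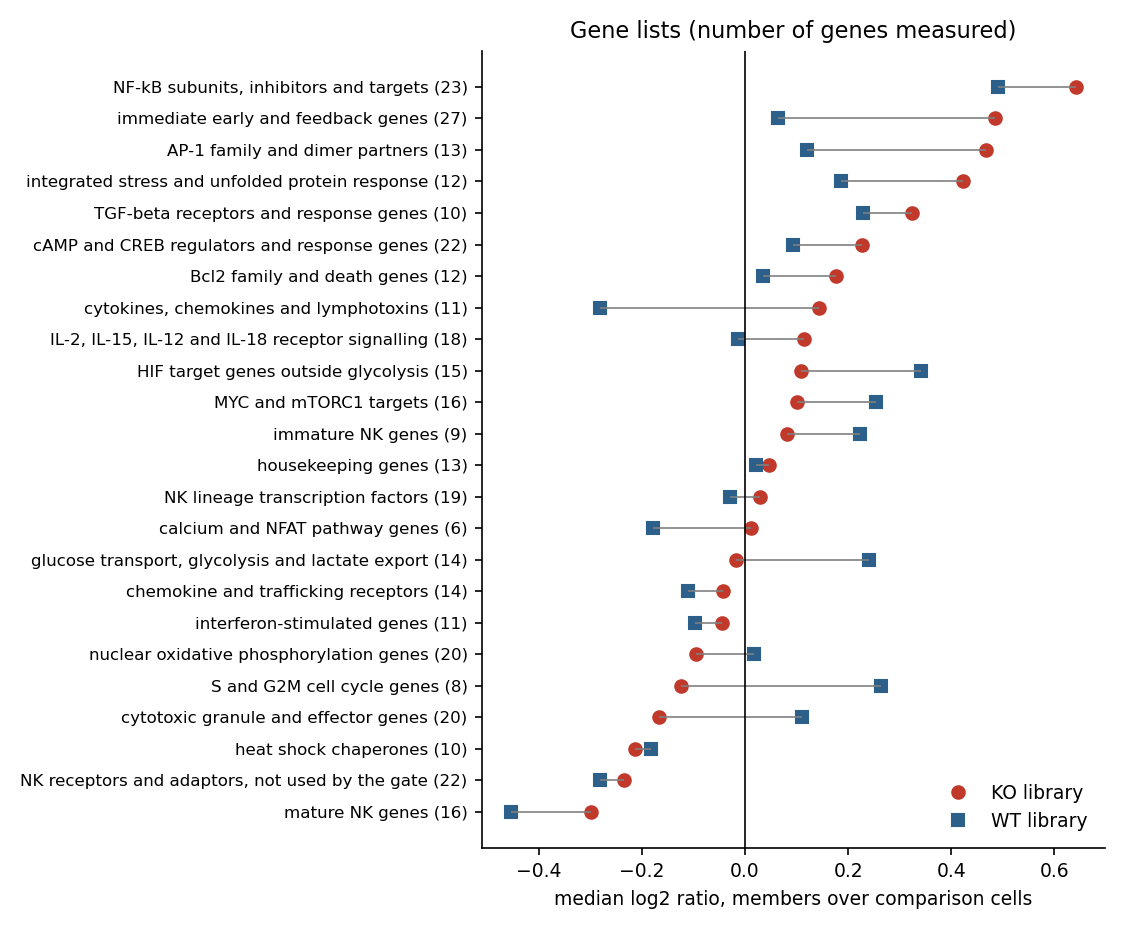
Median log2 ratio of Vegfa-expressing (members) over Vegfa-negative cells (comparison cells) for each gene list with at least 5 measured genes, with the number of measured genes in parentheses. Red circles are the KO and blue squares the WT library. Of the lists shown, NF-κB genes have the highest median in both libraries, 0.64 and 0.49, and mature NK genes the lowest, -0.30 and -0.45.

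Of 16 measured genes of mature, circulating NK cells, 3 were called lower (S1pr5, Zeb2 and Ly6c2), 0 higher and 13 in neither direction. The share called lower over all genes measured was 0.44%. List medians were -0.30 in KO and -0.45 in WT cells. S1pr5, the sphingosine 1-phosphate receptor gene that lets mature NK cells leave tissues, had 31.3 against 57.8 CPM in KO and 15.4 against 60.5 CPM in WT cells. Its log2 ratios were -0.87 (-1.22 to -0.56) and -1.90 (-2.64 to -1.37). Zeb2, a transcription factor gene of terminal NK maturation, had 121 against 206 CPM and 104 against 193 CPM, log2 ratios of -0.77 (-0.94 to -0.61) and -0.88 (-1.13 to -0.65). Without the deepest cells the WT ratio of Zeb2 was -0.58, just short of 1.5-fold, and the KO ratio of Ly6c2, -0.59 in the comparison as described, was -0.52. Klf2, which encodes a transcription factor that maintains S1P receptor expression in lymphocytes, stood at -0.48 and -0.69 and was not called. Cxcr3, an inflammatory chemokine receptor gene, was called lower at -1.08 and -0.60, and its WT ratio was -0.40 without the deepest cells.

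NK receptors outside the gates gave 0 calls among 22 measured genes, with medians of -0.24 and -0.28. Klra9, a gene of the Ly49 receptor family, had the largest mean shift, with log2 ratios of -0.55 and -0.82. Members of that family are alike in sequence, so counting may have split their UMIs and the values are uncertain. Klrg1, a receptor gene of mature NK cells, had -0.68 and -0.22. Among 9 measured immature NK genes 0 were called. From that list Emb had 0.52 and 0.68 and Cd7 had -0.23 and -0.64, with list medians of 0.08 and 0.22. In the KO library alone 0 were higher and 1 lower by 1.5-fold or more, and in the WT library alone 2 and 1. Of 19 NK lineage transcription factor genes, Ikzf2 (Helios) was called higher at 0.77 and 1.05, as was Bhlhe40, and Zeb2 was called lower.

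By the smaller absolute ratio of both libraries, the inducible HSP70 chaperone genes were the lowest called genes. In the WT library alone Ccl9, at -2.15 (-2.92 to -1.60), was lower still. Ccl9 had only 21 UMIs in WT Vegfa-expressing cells, and 10 cells held 66.7% of them. In KO Vegfa-expressing cells 10 cells held 74.1% of its UMIs. Hspa1a (chromosome 17) stood at 83.5 against 577 CPM in KO and 290 against 1084 CPM in WT cells, log2 ratios of -2.77 (-2.98 to -2.61) and -1.90 (-2.05 to -1.77). Hspa1b, a near-identical neighbour whose reads may be split with it, had -2.55 and -2.12. After thinning, Hspa1a was detected in 10.8% of KO Vegfa-expressing and 29.7% of KO Vegfa-negative cells, and in 33.3% and 51.5% in the WT library. The other 8 measured chaperone genes were not called. Dnajb1, which encodes an HSP70 co-chaperone, had -0.46 and -0.81, and Hsp90aa1, an HSP90 gene, had -0.48 and -0.62. Gpx8, Ccl9, Snap47, Phactr3, Cln3 and the unnamed locus AI467606 had log2 ratios between -2.15 and -0.69 and completed the 12 lowest genes with Hspa1a, Hspa1b, S1pr5, Zeb2, Fos and Fosb.

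Of 20 measured cytotoxic genes 2 were called higher and 0 lower, against 1.44% and 0.44% of all genes measured. The list medians were -0.17 in KO and 0.11 in WT cells. Serpinb9, the granzyme B inhibitor gene, was called at 0.78 and 0.67. Gzmc, a granzyme gene of strongly activated lymphocytes, was called at 1.2 (1.06 to 1.35) and 2.54 (2.50 to 2.60), but 10 cells held 77.4% of its UMIs in KO and 97.4% in WT Vegfa-expressing cells. Without the deepest 5% of cells its WT ratio was -0.61. The shares of cells with a Gzmc UMI after thinning were 15.7% and 15.6% in the KO library and 30.5% and 26.4% in the WT library. Gzmd, Gzme, Gzmf and Gzmg went in opposite directions in the libraries, and each sign turned in each library without the deepest 5% of cells. Their values are given with those set apart for a closer look.

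Cell cycle genes differed by library as well. Of 8 measured S and G2M genes 0 were called, with medians of -0.12 in KO and 0.26 in WT cells. At least 3 of the listed cycle genes were detected after thinning in 2.20% of KO Vegfa-expressing (1.21% to 3.67%) and 2.70% of KO Vegfa-negative cells (1.91% to 3.70%). In the WT library the shares were 10.8% (6.97% to 15.8%) and 6.65% (5.71% to 7.70%), with overlapping intervals. The WT Vegfa-expressing cells also included 29 of 221 cells above the depth of the library's top 5%, against 37 of 686 in the KO library.

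Levels were next followed over the number of Vegfa UMIs in a cell, in the order 0, 1, 2, 3 to 4, and 5 or more. Ier5l stood at 59.2, 121, 119, 148 and 175 CPM in the KO library and at 25, 53.6, 79.5, 98.7 and 138 CPM in the WT library. Cells with 1 Vegfa UMI, which the cutoff left out, were already at about the level of those with 2 in the KO library. Fosl2 increased at every step, from 374 to 552, 686, 743 and 810 CPM in KO and from 131 to 222, 267, 338 and 436 CPM in WT cells. Nr4a1 did so as well, from 801 to 1890 CPM and from 197 to 619 CPM over the same classes. Hilpda went from 94.6 to 255 CPM in the KO library, while in the WT library it stood at 57.0, 70.4, 154, 133 and 155 CPM.

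Not every marker was graded. Cxcr4 reached 252 CPM in KO and 108 CPM in WT cells with 2 Vegfa UMIs and stood at 226 and 66.3 CPM with 5 or more, within wide intervals (199 to 255 and 34.2 to 116). Crem was flat above 2 UMIs in the KO library, at 1065, 1083 and 1058 CPM. Pgk1 stood at 56.5 and 64.5 CPM in the lowest and highest KO classes, and at 67.0, 51.6 and 58.2 CPM between them. In the WT library the lowest and highest classes stood at 118 and 116 CPM. All WT Vegfa-expressing cells together stood at 165 CPM, so the end classes do not describe the classes between them. Hspa1a was lower at each step in the WT library, from 1084 to 626, 381, 218 and 105 CPM, and in the KO library stood at 577 CPM at 0 UMIs, 160 CPM at 1 UMI and between 52.0 and 98.2 CPM above that. S1pr5 stood at 60.5 CPM in WT cells with 0 Vegfa UMIs and at 5.5 CPM with 5 or more, a class of 25 cells (interval 0.1 to 30.8 CPM). These classes share each library's depth, and deeper cells reach higher Vegfa counts.

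**Figure D4:**
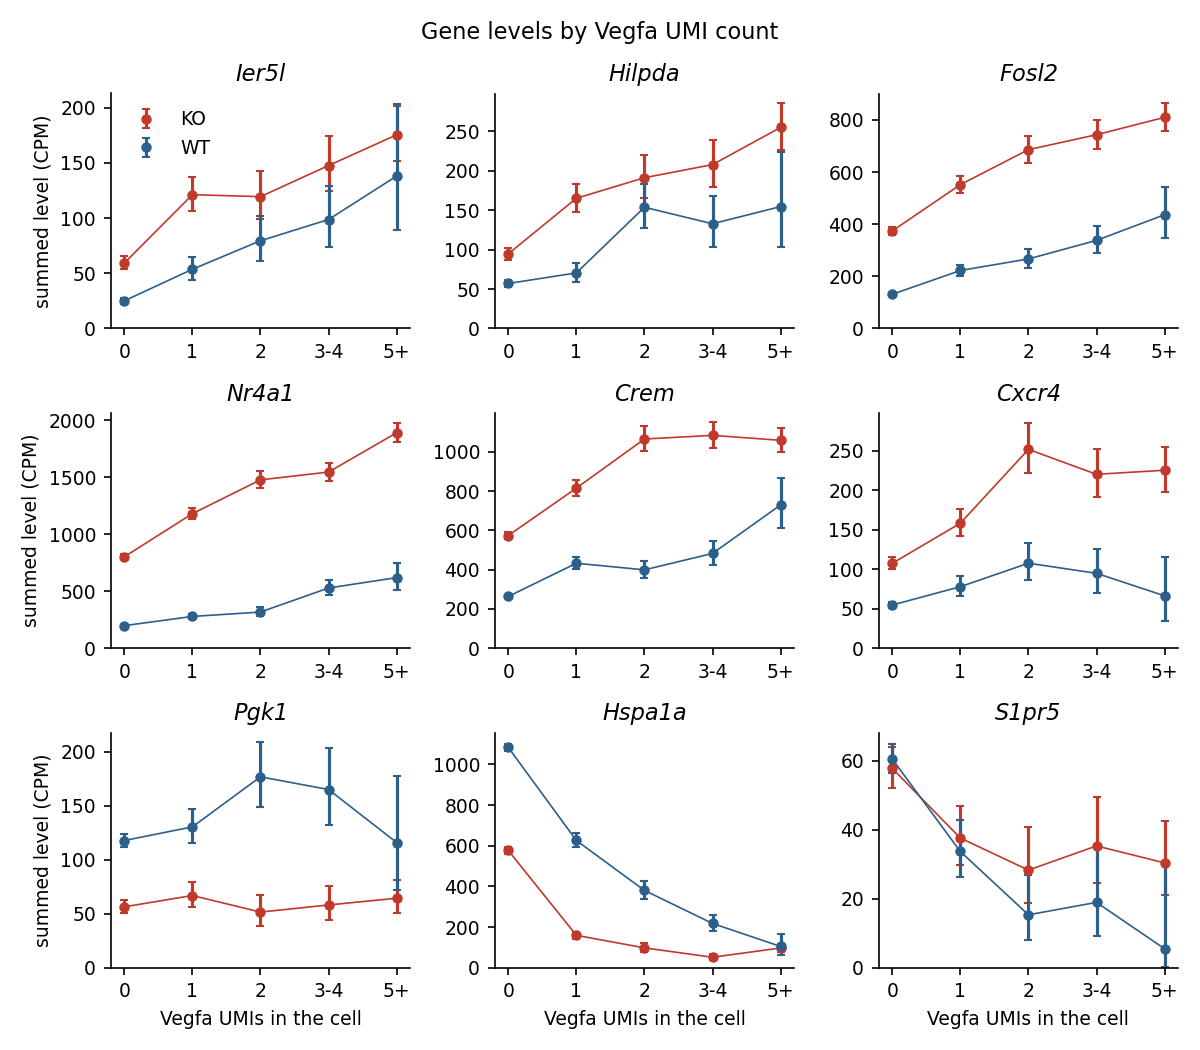
Summed level (y axis, CPM) of the genes named above each panel by Vegfa UMIs in the cell (x axis), KO in red and WT in blue, with exact 95% Poisson intervals. Ier5l, Fosl2 and Nr4a1 are highest in the 5+ class of both libraries, Cxcr4 is not, and Hspa1a and S1pr5 are highest at 0 Vegfa UMIs.

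Because Nr4a1 was high in Vegfa-expressing cells, they were also set against the Vegfa-negative cells with at least 3 Nr4a1 UMIs, of which the KO library had 599 and the WT library 299. Their median depths, 3963 and 5052 UMIs, were close to the 3979 and 5046 of the Vegfa-expressing cells. Against them 14 genes were called higher (0.28%) and 9 lower (0.18%). Of the 72 higher genes, 3 were called against both groups, Ier5l, Gzmc and Pdcd1lg2, and 56 kept a ratio above 0 in both libraries. Of the 22 lower genes, 6 were called against both groups, Hspa1a, Hspa1b, S1pr5, Cxcr3, Ccl9 and Gpx8.

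Ier5l was the marker that separated these groups most. Its level in the cells with 3 or more Nr4a1 UMIs was 82.2 CPM in KO and 37.7 CPM in WT cells, which gave log2 ratios of 0.85 (0.62 to 1.09) and 1.28 (0.89 to 1.74) for the Vegfa-expressing cells. The log2 ratios of Fosl2 were 0.35 (0.26 to 0.44) and 0.38 (0.19 to 0.57), those of Hilpda 0.49 and 0.40, and those of Bcl2l11 0.49 and 0.76. Cxcr4 had 0.49 (0.32 to 0.67) and 0.06 (-0.27 to 0.38), and Crem 0.46 and 0.18. Nr4a1 itself, which chose this group, stood at -0.033 and -1.0. Hspa1a was lower, at -1.48 and -0.85, and S1pr5 at -0.68 and -1.38.

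KO and WT cells were then compared within the Vegfa-expressing cells, which asks how these cells differed between the Hif1a genotypes as far as 1 library each can show. Of 4997 genes, 539 were at least 1.5-fold higher (10.8%) and 307 lower (6.14%) in the KO library. In Vegfa-negative cells, which are more numerous, 221 were higher (4.42%) and 70 lower (1.4%), and 178 genes were higher in both. Without the deepest 5% of cells 198 genes were lower in KO Vegfa-expressing cells, and without cells with 3 or more cycle genes 194. The smaller number of WT Vegfa-expressing cells widens the counting error of the first comparison. Of the 72 genes higher in Vegfa-expressing cells, 66 had a KO over WT ratio above 0 in these cells, 49 were at least 1.5-fold higher, and 44 were so in the Vegfa-negative cells as well. The genes that went with Vegfa within each library were thus mostly higher in the KO library also where Vegfa was not counted. Of the 22 lower genes, 7 were lower and 6 higher by 1.5-fold or more in KO Vegfa-expressing cells.

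The 4 marker genes had higher levels in KO than in WT Vegfa-expressing cells. The log2 ratios KO over WT were 1.26 (1.12 to 1.41) for Fosl2, 1.24 (0.99 to 1.51) for Cxcr4, 1.19 (1.07 to 1.31) for Crem and 0.67 (0.39 to 0.96) for Ier5l. In Vegfa-negative cells they were 1.51, 0.96, 1.12 and 1.21. Among genes with at least 100 UMIs, the highest ratios were those of Cfap46, a cilium gene, at 2.71 (2.03 to 3.78), and Map3k14, which encodes the NF-κB inducing kinase NIK, at 2.12 (1.55 to 2.92). Nfkbiz at 2.06, the interferon-stimulated gene Isg15 at 2.0, Csrnp1 at 1.98, Nr4a1 and the antiproliferative gene Btg2 at 1.94 and the transferrin gene Trf at 1.94 (1.43 to 2.60) followed. Cfap46, Map3k14, Isg15, Btg2 and Trf were not higher in Vegfa-expressing than in Vegfa-negative cells of the WT library, where their log2 ratios lay between -0.51 and -0.03. In the KO library these ratios lay between 0.38 and 1.0. Their KO over WT ratios in Vegfa-negative cells lay between 1.05 and 1.67. The 100 UMIs were summed over both libraries. WT Vegfa-expressing cells held 13 UMIs of Cfap46, 21 of Map3k14, 25 of Isg15 and 29 of Trf.

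**Figure D5:**
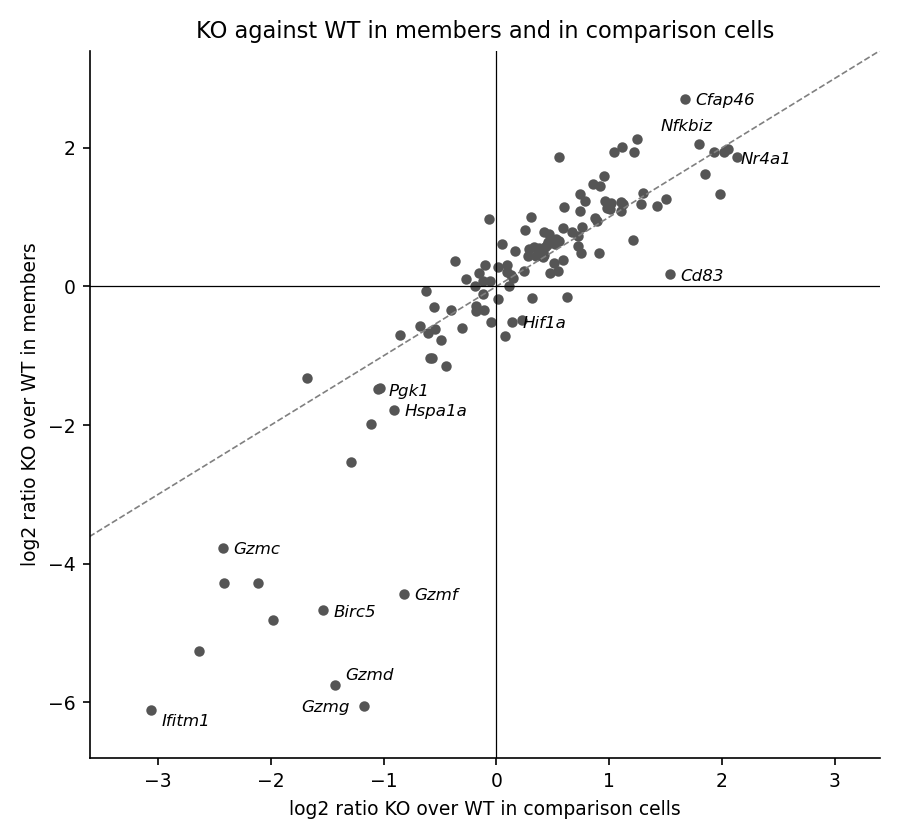
Log2 ratio KO over WT of each named gene in Vegfa-expressing cells (members, y axis) against that in Vegfa-negative cells (comparison cells, x axis), on CPM with 1 CPM added. The dashed line marks equal ratios. Nr4a1 lies near the line at 1.94 and 2.02, whereas Gzmd, Gzmf and Gzmg lie far below it, at -5.74, -4.43 and -6.05 in Vegfa-expressing cells (Gzmf at 0.79 without the deepest 5% of cells), and Cd83 lies below it at 0.17.

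Genes of the glycolytic pathway were lower in KO Vegfa-expressing cells. Of 14 measured, 9 were lower and 0 higher by 1.5-fold or more, with a median log2 ratio of -0.77, and in Vegfa-negative cells 5 were lower and 0 higher, with a median of -0.50. Over all genes the medians were 0.05 and 0.04. For this and the following lists, the shares over all genes were 10.8% higher and 6.14% lower in Vegfa-expressing cells. In Vegfa-negative cells they were 4.42% and 1.4%. Pgk1 stood at 58.4 CPM in KO and 165 CPM in WT Vegfa-expressing cells, a log2 ratio of -1.49 (-1.79 to -1.22), and at -1.05 in Vegfa-negative cells. Among HIF targets outside glycolysis 1 of 15 was higher and 5 lower, with a median of -0.39, whereas in Vegfa-negative cells 3 were higher and 2 lower, with a median of -0.15. Hilpda stood at 220 CPM in KO and 146 CPM in WT Vegfa-expressing cells, a log2 ratio of 0.58 (0.36 to 0.81). The NF-κB list went the other way, with 15 of 23 higher and 0 lower and a median of 0.75, close to the 0.79 of Vegfa-negative cells. Likewise 21 of 27 immediate early and feedback genes were higher and 1 lower, with a median of 0.91, against 15 higher and 0 lower and a median of 0.62 in Vegfa-negative cells.

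The lowest ratios rested on few WT cells. Ifitm1 and Ifitm2, interferon-inducible membrane protein genes, had log2 ratios KO over WT of -6.11 and -5.26 in Vegfa-expressing cells, and 10 WT cells held 97% of the UMIs of each. Gzmg, Gzmd, Gzme and Gzmf had -6.05, -5.74, -4.81 and -4.43, with 97.5% to 98.2% of WT UMIs in 10 cells. Without the deepest 5% of cells the ratios of Gzmg, Gzmd and Gzme were -2.16, -1.40 and -1.40, and that of Gzmf turned to 0.79. The histone gene Hist1h2ap and the metallothionein gene Mt2 had -4.28 each, with 87.1% and 90.1% in 10 cells. In Vegfa-negative cells these genes were lower in the KO library too. The log2 ratios there were -3.06 for Ifitm1, -2.63 for Ifitm2, -2.11 for Hist1h2ap and -2.41 for Mt2. Gzmg, Gzmd, Gzme and Gzmf had -1.18, -1.43, -1.98 and -0.82. In WT Vegfa-negative cells 10 cells held between 33.5% and 73.3% of the UMIs of each gene. Counting intervals take UMIs as independent and are too narrow for such genes. Birc5, a mitotic survivin gene, stood at 1.3 CPM (4 UMIs) in KO and 57.8 CPM (86 UMIs) in WT Vegfa-expressing cells. Its log2 ratio was -4.67, and -1.54 in Vegfa-negative cells. In WT Vegfa-expressing cells 10 cells held 84.9% of its UMIs. Of 8 measured cycle genes, 6 were lower by 1.5-fold or more in KO than in WT Vegfa-expressing cells. Over all genes measured the share was 6.14%. In Vegfa-negative cells 4 of the 8 were lower, against 1.4% of all genes measured. Hspa1a had 83.5 CPM in KO and 290 CPM in WT Vegfa-expressing cells, -1.78 (-2.02 to -1.57), and -0.91 in Vegfa-negative cells.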

How the data were processed

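The deposited tables hold whole-number UMI counts per gene symbol and barcode, not normalized, for 27998 genes in 2 libraries. The submitters' processing notes name Cell Ranger 2.0.2, Seurat and mm10, without a role. The sources used here do not give the gene annotation or the cell calling.

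Barcodes were filtered and gated as the report states. Comparison cells were taken inside the NK gates, and all kept cells with 0 Vegfa UMIs served as an alternative. Counts were summed per library and cell group and scaled to CPM. Intervals are exact 95% intervals: conditional binomial for ratios (computed without the added CPM), Clopper-Pearson for shares, Poisson for sums. Thinning drew 2500 UMIs per cell without replacement. All barcodes held 13407906 UMIs in the KO table and 19553440 in that of WT. Scrublet, run through scanpy 1.11.5, called 6 KO and 2 WT cells (0.196% and 0.0563%) and was not relied on, so doublets were kept. Summing and calling were tested on simulated Poisson counts of the summed cells. Such counts hold no spread between cells, so this does not check genes whose UMIs sit in few cells.

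Named genes were Hif1a, Vegfa, the given markers, the 12 highest and 12 lowest called genes by the smaller ratio, up to 4 per list with the largest mean ratio, and the 8 highest and 8 lowest KO over WT ratios with at least 100 UMIs. This named 122 genes, not all of them described. Unnamed gene models (Gm, Rik, AC, BC), Xist, Tsix and Y-linked, mitochondrial, ribosomal, hemoglobin and antigen receptor genes were left out of the size parts. Pdcd1lg2, Plac8 and list members outside these 122 were named after their values were seen. The Vegfa-expressing cells and the 28 pathway and 11 marker lists were chosen with earlier results of these data known. Of the listed genes, 8 had no row in the tables. Alternatives covered 14 settings, among them the Vegfa cutoff, doublet scores, depth, scaling, pseudocount and floor. Promoter windows come from RefSeq, matched by symbol for 54 of 72 higher and 19 of 22 lower genes.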

Additional observations from a re-analysis of the deposited data

Results flagged for a closer look

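Vegfa UMIs also appeared in kept cells outside the gates. Among cells with 2 or more CD3 UMIs, 6.38% of KO and 3.63% of WT cells had 2 or more Vegfa UMIs. In cells with a Tmem176 UMI the shares were 27.6% and 14.1%, and in KO cells without a UMI of Ncr1, Klrb1c or Klre1 the share was 20.8% (5 of 24). Among WT cells without a UMI of these receptor genes it was 0 of 8. After thinning, the share was 3 of 88 KO and 0 of 191 WT cells with CD3 UMIs. No control sample was used here, so these shares do not tell free RNA from expression.

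The granzyme genes Gzmd to Gzmg went in opposite directions in the libraries when Vegfa-expressing were set against Vegfa-negative cells, and the difference was not tested. The log2 ratios were -2.43 in KO and 1.89 in WT cells for Gzmd, -1.40 and 1.42 for Gzme, -0.94 and 2.68 for Gzmf and -2.78 and 2.09 for Gzmg. Without the deepest 5% of cells each sign turned, to 0.43 and -1.08 for Gzmd, 1.03 and -1.39 for Gzme, 1.61 and -0.93 for Gzmf and 0.16 and -1.74 for Gzmg. These genes are alike in sequence, so counting may have split their UMIs and the values are uncertain. In WT Vegfa-expressing cells 10 cells held between 97.5% and 98.2% of the UMIs of each. Any UMI of Gzmc to Gzmg was found after thinning in 24.4% of KO Vegfa-expressing and 21.5% of KO Vegfa-negative cells, and in 47.4% and 46.0% in the WT library. At least 10 such UMIs were found in 3 of 636 and 4 of 1372 KO cells and in 5 of 213 and 33 of 2525 WT cells.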

How the results depend on the processing

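With 1 library per genotype, mice, tumors and preparations cannot be told apart from genotype, and depth limits what a single cell can show. The share of Vegfa-expressing cells was 41.0% in KO and 18.0% in WT cells at a cutoff of 1 Vegfa UMI, 16.5% and 3.34% at 3 UMIs, and 18.2% and 2.89% after thinning. Over all kept cells the KO share was 22.4%. Against Vegfa-negative cells, 38 genes were higher and 11 lower at a cutoff of 1 UMI, and 37 were lower at 3 UMIs. A pseudocount of 10 CPM gave 45 higher and 12 lower, a floor of 50 CPM 11 lower, and no floor 177 and 288. KO against WT in Vegfa-expressing cells gave 349 higher and 162 lower at 1 UMI, 351 and 192 with a pseudocount of 10 CPM, 263 and 125 with a floor of 50 CPM and 2481 and 2004 with none. It gave 198 lower without the deepest 5% of cells and 194 lower without cells with 3 or more cycle genes. Fewer genes were tested with the higher floor and more without one; otherwise the cause was not tested. In each setting that kept the Vegfa-negative cells as the comparison and the floor of 20 CPM, at least 71 of the 72 higher genes kept a ratio above 0 in both libraries and all 22 lower genes one below 0. Of the list medians, 708 values under alternatives stayed close to the reported one and 44 moved. Without the deepest 5% of cells the log2 ratios against Vegfa-negative cells changed sign for Gzmc (WT -0.61), Gzmd (KO 0.43, WT -1.08), Gzme (1.03, -1.39), Gzmf (1.61, -0.93) and Gzmg (0.16, -1.74), and KO over WT became 1.0 for Gzmc and 0.79 for Gzmf. Gzmf in the KO library was 0.22 at 1 UMI and 0.11 after thinning. Against Vegfa-negative cells with at least 3 Nr4a1 UMIs the KO ratios were 0.54 for Gzmd, 2.76 for Gzme, 1.67 for Gzmf, 0.96 for Gzmg, -0.031 for Cd83, -0.033 for Nr4a1 and -0.030 for Nr4a2. The WT ratios were 0.063 for AI467606, -0.093 for Bhlhe40, 0.10 for Cln3, -0.62 for Gadd45b, -0.19 for Nfkbid, -0.26 for Nfkbiz, -1.0 for Nr4a1, -0.42 for Nr4a2, -0.19 for Nr4a3 and -0.092 for Tgif1. This group was chosen on Nr4a1.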
